A study of Bos taurus with 13 samples.

Results

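The receptors for the cytokines IL-12, IL-23, IL-21 and IL-17 were described from 6 genes, *IL12RB1*, *IL12RB2*, *IL23R*, *IL21R*, *IL2RG* and *IL17RA*, chosen by gene name out of 16095 named genes counted in cattle blood. All 6 were found in the counts of every cow and all 6 passed the filter on low counts, which left 11033 genes for testing. RNA was sequenced from whole blood of lactating Italian Red Pied cows (Italian Simmental), drawn from the tail vein into PAXgene tubes. Cows of 1 herd had been ranked by the concentration of cortisol in their milk, with no treatment given, and those from the top and bottom of the ranking were compared. Counts of 7 cows with high cortisol (replicates 1 to 7) and 6 cows with low cortisol (replicates 8 to 13) were analysed here, each cow being 1 library. The age of single cows was not in the labels used here.

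These receptors are built from shared chains. IL-12Rβ1, the product of *IL12RB1*, pairs with IL-12Rβ2 to bind IL-12 and with IL-23R to bind IL-23, and the first receptor acts through the kinases TYK2 and JAK2 in T cells and NK cells that make interferon gamma, while the second maintains cells that make IL-17. IL-21R pairs with the common gamma chain, the product of *IL2RG*, which also serves the receptors for IL-2, IL-4, IL-7, IL-9 and IL-15 and signals through JAK3. IL-17RA is the shared chain of the receptors for the IL-17 family and is carried by many cell types, myeloid cells included, so that whole blood holds both the lymphocytes that use the first chains and the cells that answer IL-17.

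The libraries held between 11045599 and 28124575 reads assigned to named genes. A count of 0 therefore allowed a level of up to 0.107 to 0.272 CPM (counts scaled to the total of each library), taking 3 counts as the limit and covering counting error only. Markers of T cells were present at summed levels of 3710 to 6341 CPM and those of neutrophils at 4111 to 8960 CPM, with none at 0 in every cow. The library of high replicate 4 stood apart, with a score of 62.4 on the first principal component of the 11027 other genes tested against 19.1 for the next cow. It was the lowest or highest cow in 51.9% of all genes tested, against 5.52 to 23.9% for the other cows. It had the lowest level of *IL12RB1*, *IL21R*, *IL2RG* and *IL17RA* and the highest level of *IL23R*, so values without it are given beside the main results below.

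Over the 13 cows the 6 genes spanned a wide range of levels. On the scale of CPM per kilobase of exon, which allows different genes to be compared, *IL2RG* was highest with a mean level of 872 ± 130 (SD, n = 13). Next came *IL17RA* with a mean of 47.4 ± 6.40, *IL12RB1* with 39.9 ± 7.71 and *IL21R* with 34.7 ± 7.74. The chains that give the IL-12 and IL-23 receptors their specificity were lowest, *IL12RB2* with 3.98 ± 1.09 and *IL23R* with 0.733 ± 0.503. By their mean CPM per kilobase of exon among the genes tested, *IL2RG* stood at the 99.2 percentile and *IL23R* at the 7.00 percentile.

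**Figure D1:**
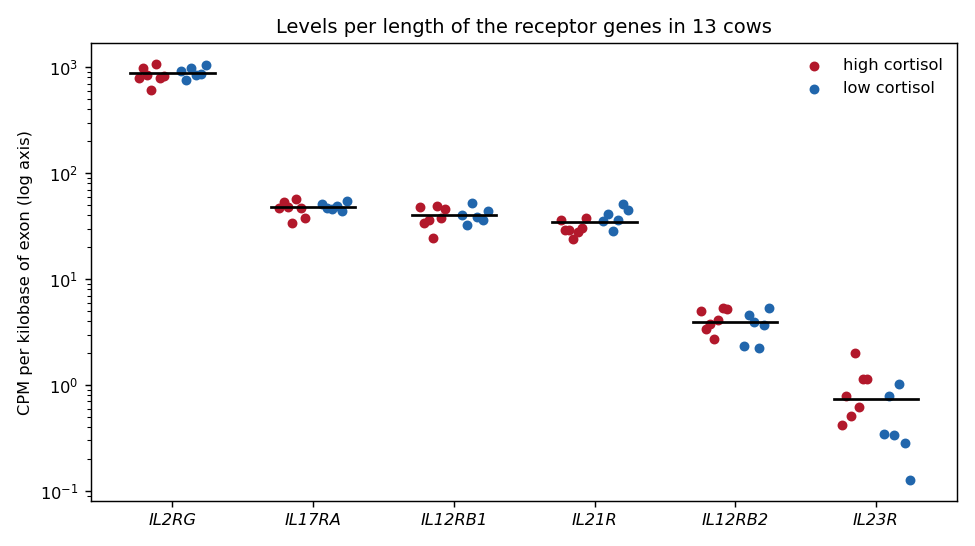
Level per length (CPM per kilobase of exon, logarithmic axis) of the 6 receptor genes in each cow, with high cortisol cows in red, low cortisol cows in blue and the mean over the 13 cows as a line. *IL2RG* lies above all others in every cow, *IL17RA*, *IL12RB1* and *IL21R* overlap, and *IL12RB2* and *IL23R* form separate lower ranges.

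The neighbours in this order were compared within each cow by an exact two-sided sign-flip permutation test, adjusted over the 5 neighbouring pairs by the Benjamini-Hochberg method. *IL2RG* exceeded *IL17RA* 18.3-fold and in 13 of 13 cows (adjusted exact p = 0.000407, raw p = 0.000244, the smallest that the test can give). *IL21R* exceeded *IL12RB2* 8.88-fold and *IL12RB2* exceeded *IL23R* 6.54-fold, each in 13 of 13 cows and with the same p. The ranges of the 2 genes did not overlap in any of these 3 pairs. The middle of the order was closer, since *IL17RA* lay 1.2-fold above *IL12RB1*, with overlapping ranges and in 10 of 13 cows (adjusted exact p = 0.00732). Before scaling by exon length (2484 and 2992 bases) their mean levels were 118 and 119 CPM, so the order of these 2 genes rests on the lengths. The test measures spread between cows and not error in those lengths. *IL12RB1* lay 1.15-fold above *IL21R*, in 10 of 13 cows, and these 2 neighbours did not differ beyond their spread (adjusted exact p = 0.0818), although the same test passed without low replicate 9 (adjusted exact p = 0.0381) or low replicate 12 (adjusted exact p = 0.0176).

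The genes also differed in how much they varied from cow to cow. The steadiest were *IL17RA* and *IL2RG*, whose CPM had a coefficient of variation of 13.5% and 14.9% over the 13 cows and a ratio of highest to lowest cow of 1.68 and 1.76. *IL12RB1* and *IL21R* were intermediate at 19.3% and 22.3%, and *IL12RB2* reached 27.5%. *IL23R* varied most, with a coefficient of variation of 68.7% and a 15.7-fold range, and its standard deviation on the log2 scale was at the 97.6 percentile of the genes tested. Part of that spread was counting error, since *IL23R* had between 4 and 59 counts per cow (median 20), for which counting alone gives a coefficient of variation of about 26.7%. For *IL2RG*, with 13989 to 36406 counts, the same figure was 0.687%.

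High cortisol was then compared with low cortisol. Over all 11033 genes, edgeR's quasi-likelihood test with Benjamini-Hochberg adjustment called 0 genes (percent called 0), with a smallest adjusted p of 0.998. At an unadjusted p below 0.05 it gave 231 genes (2.09%), 103 higher (0.934%) and 128 lower (1.16%) in the high group. Of the 6 receptor genes 0 were called after adjustment and 1, *IL21R*, was at an unadjusted p below 0.05. DESeq2 called 1 gene of 14377 after adjustment (0.00696%) and limma-voom called 0 (348 and 218 at an unadjusted p below 0.05, or 2.42% and 1.98%), and neither called a receptor gene. The log2 fold changes of the 6 genes ran from -0.37 to 0.93 with a median of -0.05, beside a median of 0.01 over all genes tested, 2 being positive and 4 negative. The ranges of the high and low cows overlapped for all 6 genes.

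**Figure D2:**
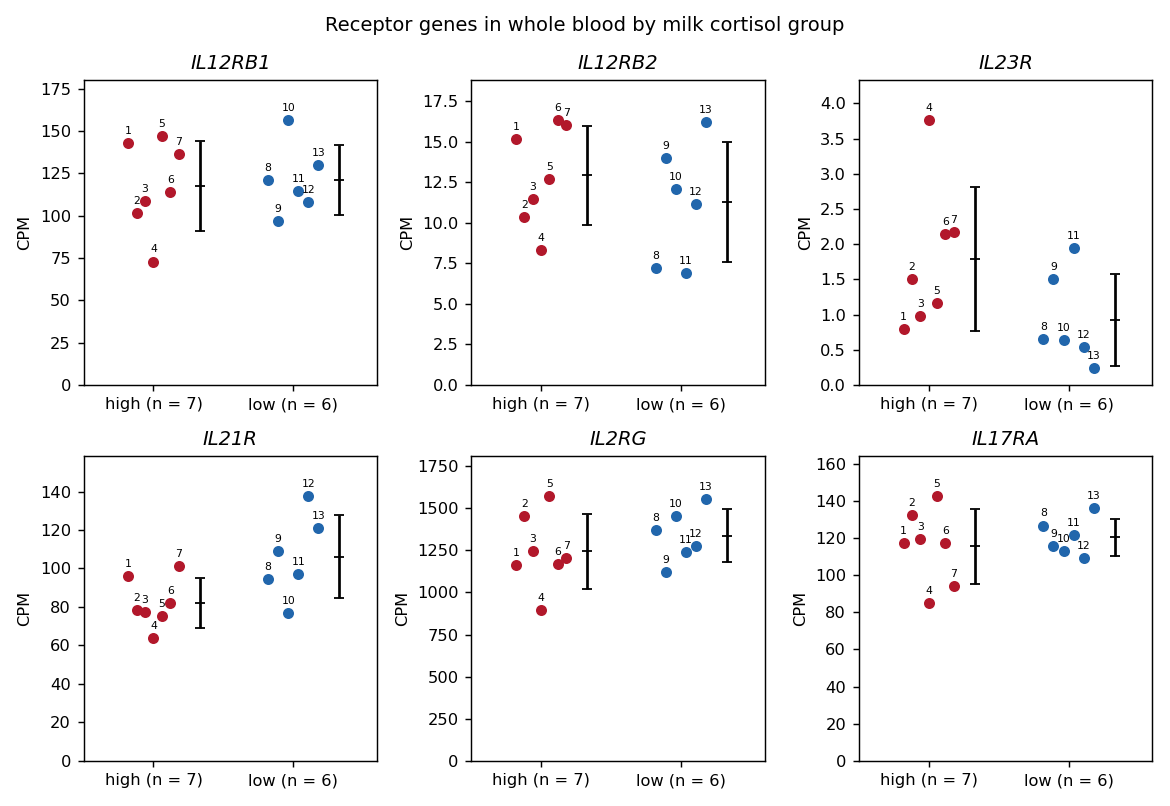
CPM of each receptor gene in the 7 high cortisol cows (red) and 6 low cortisol cows (blue), numbered by replicate, with the mean and SD of each group beside the points and a vertical axis from 0. The ranges of the groups overlap in every panel. All 7 high cows lie below the low median for *IL21R* and above it for *IL23R*, and replicate 4 has the lowest points for *IL12RB1*, *IL21R*, *IL2RG* and *IL17RA* and the highest for *IL23R*.

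*IL12RB1* encodes the chain shared by the IL-12 and IL-23 receptors and lies on chromosome 7 of UMD3.1, the cattle build of the count tables, at 5050175 to 5068855 on the plus strand, with 19 exon records. Its level was 72.9, 114 and 147 CPM in the lowest, median and highest of the 7 high cows and 97.1, 118 and 157 CPM in those of the 6 low cows. The low cows lay within or above the range of the high cows, and 1 high cow, replicate 4, was below all of them. The group means were 118 ± 26.5 CPM (SD, n = 7) and 121 ± 20.7 CPM (SD, n = 6). The log2 fold change was -0.04 with a standard error of 0.15 and a 95% interval of -0.37 to 0.28 (edgeR, adjusted p = 0.998). Without high replicate 4 the sign turned, to 0.05 with an interval of -0.22 to 0.31. The exact two-sided permutation test over the 1716 splits of 7 against 6 cows gave p = 0.731.

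*IL12RB2*, the chain specific to IL-12, lies on chromosome 3 at 78269730 to 78343709 on the minus strand (15 exon records). The lowest, median and highest high cows had 8.30, 12.7 and 16.4 CPM, and the low cows 6.89, 11.6 and 16.2 CPM. The low cows were the more scattered, with replicates 8 and 11 below every high cow and replicate 13 close to the highest. High cows averaged 12.9 ± 3.07 CPM (SD, n = 7) and low cows 11.3 ± 3.70 CPM (SD, n = 6). The log2 fold change was 0.21 ± 0.22 (SE; 95% interval -0.27 to 0.68; edgeR, adjusted p = 0.998), and 0.29 without high replicate 4. The exact permutation p was 0.347.

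*IL23R*, the chain specific to IL-23, is the next named gene on the same strand of chromosome 3, at 78400188 to 78473783 (10 exon records), 56478 bases from *IL12RB2*. Its lowest, median and highest levels were 0.797, 1.51 and 3.77 CPM in the high group and 0.241, 0.643 and 1.94 CPM in the low group. All 7 high cows were above the low median, a pattern that 177 of the 11033 genes shared (1.6%), 3 high cows were above every low cow and 4 low cows were below every high cow. Low replicates 9 and 11 lay inside the high range. Counting error was large in single cows: the 4 counts of low replicate 13 gave an exact 95% Poisson interval of 0.0655 to 0.616 CPM, and the 59 counts of high replicate 4 one of 2.87 to 4.86 CPM.

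The group means of *IL23R* were 1.79 ± 1.02 CPM (SD, n = 7) and 0.919 ± 0.654 CPM (SD, n = 6), and its log2 fold change of 0.93 was the largest of the 6 genes and the least precise (SE 0.46, 95% interval -0.04 to 1.90). It did not pass the test (edgeR, unadjusted p = 0.0603, adjusted p = 0.998), and the exact permutation p was 0.0583. The estimate leaned on single cows. Without high replicate 4 it was 0.63 (unadjusted p = 0.166), and without low replicate 11 it was 1.33 (unadjusted p = 0.0126). The high cows also held more haemoglobin reads, 0.0282 to 0.815% of named counts against 0.0114 to 0.0552%, and with the log2 haemoglobin share as a covariate the log2 fold change of *IL23R* was 0.45 (unadjusted p = 0.417). The part of red cell RNA in the difference was not tested further. In whole blood, fewer cells of a type and less RNA per cell cannot be told apart, for this gene and for the others.

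*IL21R* encodes the chain specific to IL-21, a cytokine of helper T cells that acts on B cells, T cells and NK cells, and lies on chromosome 25 at 25233186 to 25268874 on the plus strand (9 exon records), next to *IL4R*, another receptor gene that uses the common gamma chain. The high cows had 63.7, 78.2 and 101 CPM as lowest, median and highest, and the low cows 77.0, 103 and 138 CPM. All 7 high cows were below the low median, as for 174 of the 11033 genes (1.58%), and 3 low cows were above every high cow. The groups still overlapped, since low replicate 10 fell among the lower high cows. The means were 82.0 ± 12.8 CPM (SD, n = 7) and 106 ± 21.5 CPM (SD, n = 6).

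The log2 fold change of *IL21R* was -0.37, a ratio of 0.773, with a 95% interval of -0.66 to -0.08. By edgeR's quasi-likelihood test with Benjamini-Hochberg adjustment it ranked 51 among all genes tested and did not pass (unadjusted p = 0.0147, adjusted p = 0.998). The exact permutation p was 0.0315. Without high replicate 4 the log2 fold change was -0.32 (edgeR, unadjusted p = 0.0294) and the exact permutation p was 0.0758. The summed level of the 12 T cell markers ran from 3710 to 5294 CPM in the high cows and from 4200 to 6341 CPM in the low cows. Of the 12 markers 10 had a negative log2 fold change, beside 46.7% of all genes tested, and 0 were at an unadjusted p below 0.05 (edgeR). Their score, the mean of centred log2 CPM, differed by -0.05 (high minus low, exact permutation p = 0.584). Without high replicate 4 the score differed by -0.02 (exact permutation p = 0.810). The part of T cells in the difference of *IL21R* was not tested beyond a fit with this score as covariate. In that fit *IL21R* was at -0.35 (edgeR, unadjusted p = 0.0213, adjusted p = 0.9996). The B cell score and the cytotoxic and NK score lay the other way, at 0.14 and 0.22 (exact permutation p = 0.426 and 0.152). Without high replicate 4 they were at 0.21 and 0.24. The log2 fold change was positive for 7 of 8 B cell and 9 of 9 cytotoxic and NK markers, beside 5885 of the 11033 genes. The part of these cells was not tested.

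*IL2RG* encodes the common gamma chain and lies on chromosome X at 84816193 to 84819838 on the plus strand (8 exon records). It was measured with the most counts, and its lowest, median and highest levels were 894, 1205 and 1575 CPM in the high group and 1120, 1323 and 1556 CPM in the low group. Apart from replicate 4 below and replicate 5 above, the high cows lay within the range of the low cows. The log2 fold change was -0.10 ± 0.13 (SE; 95% interval -0.37 to 0.16; edgeR, adjusted p = 0.998), and -0.04 without high replicate 4. The exact permutation p was 0.378.

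*IL17RA* lies on chromosome 5 at 109376807 to 109391067 on the plus strand (12 exon records), inside the span of *CACNA1C* but without a shared exon. The lowest, median and highest levels were 85.0, 118 and 143 CPM in the high cows and 109, 119 and 136 CPM in the low cows. The medians were nearly the same and the high cows were spread to both sides of the low cows, with SDs of 20.3 CPM (n = 7) and 9.95 CPM (n = 6). The log2 fold change was -0.06 ± 0.12 (SE; 95% interval -0.31 to 0.19; edgeR, adjusted p = 0.998), and 0.00 without high replicate 4. The exact permutation p was 0.534. No exon of any of the 6 genes overlapped another entry of the count tables.

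**Figure D3:**
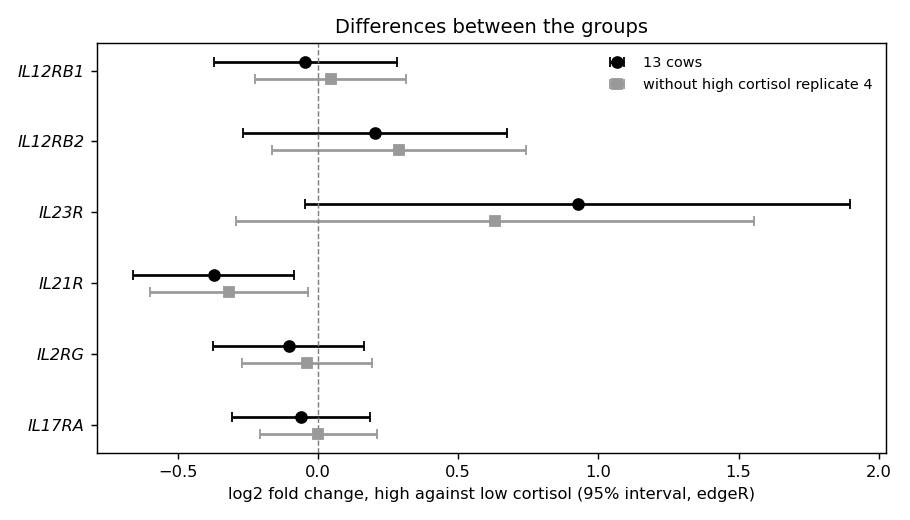
Log2 fold change of each receptor gene, high against low cortisol, with its 95% interval from edgeR, for the 13 cows (black circles) and without high replicate 4 (grey squares). In both fits the interval of *IL21R* alone lies wholly below 0, at -0.66 to -0.08 and -0.60 to -0.04, and the interval of *IL23R* is the widest.

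Because the chains act in pairs, the levels per length of partners were set against each other within each cow. For every 100 units of *IL12RB1* there were 10.3 of *IL12RB2* (median of 13 cows, range 5.84 to 14.1) and 1.42 of *IL23R* (range 0.292 to 8.17). For every 100 of *IL2RG* there were 3.93 of *IL21R* (range 2.63 to 5.94). The specific chain was thus the scarcer transcript of each pair in all cows.

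Between the groups, the log2 ratio of *IL23R* to *IL12RB1* differed by 1.03 (high minus low), with all 7 high cows above the low median (exact permutation p = 0.100). The ratio of *IL12RB2* to *IL12RB1* differed by 0.29 (exact permutation p = 0.220) and that of *IL21R* to *IL2RG* by -0.25 (exact permutation p = 0.211). None of the 3 ratios passed the test, with an adjusted exact p of 0.220 for each. Without high replicate 4 the differences were 0.72, 0.28 and -0.26 (adjusted exact p = 0.277 for each). The ratio of *IL12RB2* to *IL12RB1* had a narrower range in the high cows, 8.43 to 14.1 per 100, than in the low cows, 5.84 to 14.1 per 100, and this difference in spread was not tested.

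Co-variation over the 13 cows was measured on log2 CPM for the 15 pairs of the 6 genes, of which 10 had a positive and 5 a negative Pearson r, all 5 of the latter with *IL23R*. Not all of these signs held without high replicate 4. There r was negative for *IL12RB1* with *IL21R* (-0.24) and with *IL17RA* (-0.02). For *IL12RB2* with *IL2RG* and *IL17RA* it was -0.14 and -0.24, and for *IL21R* with the same genes -0.22 and -0.29. The remaining pairs kept their sign. After adjustment 1 pair passed, *IL2RG* with *IL17RA* (r = 0.81, permutation p = 0.00066, adjusted p = 0.00990; Spearman rho = 0.70, permutation p = 0.00934, adjusted p = 0.140). Within the groups r was 0.88 in the 7 high cows and 0.52 in the 6 low cows. This relation rested partly on single cows. Without the 2 cows farthest from the median of *IL2RG* r was 0.54, and without high replicate 4 it was 0.65 and did not pass (adjusted permutation p = 0.275).

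The next pairs were *IL12RB1* with *IL2RG* (r = 0.68, permutation p = 0.0108, adjusted p = 0.0539; rho = 0.46, permutation p = 0.118) and *IL23R* with *IL2RG* (r = -0.68, permutation p = 0.0102, adjusted p = 0.0539; rho = -0.57, permutation p = 0.0463). Without high replicate 4 they were 0.40 and -0.51, and without the 2 farthest cows 0.31 and -0.32. Over the 13 cows the chains that pair in 1 receptor did not track each other closely, with r = 0.41 for *IL12RB1* and *IL12RB2* (permutation p = 0.170), -0.53 for *IL12RB1* and *IL23R* (permutation p = 0.0597) and 0.20 for *IL21R* and *IL2RG* (permutation p = 0.512). For these 3 pairs rho was 0.34, -0.37 and -0.07 (permutation p = 0.255, 0.208 and 0.835). Their r was 0.81, -0.68 and 0.21 within the high cows and 0.08, -0.48 and -0.17 within the low cows. Without high replicate 4, r over both groups was 0.25, -0.28 and -0.22. *IL12RB2* and *IL23R*, neighbours on the chromosome, had r = -0.21 (permutation p = 0.488). *IL21R* and its neighbour *IL4R*, a pair chosen after its values were seen, had r = 0.38 (permutation p = 0.201; rho = 0.26, permutation p = 0.384).

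The receptor genes were also set against the main axis of the whole data set. The first principal component of the other genes tested, a measure also chosen after values were seen, carried 28.9% of their variance, its sign set so that high replicate 4 is positive, and *IL2RG* followed it closely, with r = -0.96 (permutation p = 1e-05, the smallest that 100000 resamples can give; rho = -0.92, permutation p = 2e-05). The relation held without high replicate 4 (r = -0.93), without the 2 farthest cows (r = -0.91), in the high cows (r = -0.96) and in the low cows (r = -0.95). In these checks and those below the component stayed that of all cows, high replicate 4 included, and was not fitted again. The share of all genes tested that follow the component as closely was not computed, for *IL2RG* or for the genes below. These p values therefore do not set the receptor genes apart from other genes. *IL23R* went the other way (r = 0.77, permutation p = 0.00222, adjusted over the 6 genes 0.00643; rho = 0.66, permutation p = 0.0173), and without high replicate 4 it did not pass (r = 0.66, adjusted permutation p = 0.0579). For *IL12RB1* and *IL17RA* r was -0.76 each (permutation p = 0.00429 and 0.00339; rho = -0.57 and -0.62, permutation p = 0.0454 and 0.0283), and -0.50 and -0.52 without high replicate 4, where neither passed the test (adjusted permutation p = 0.153 for both). *IL21R* (r = -0.37) and *IL12RB2* (r = -0.27) did not follow it beyond what permutation gave (permutation p = 0.218 and 0.380).

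**Figure D4:**
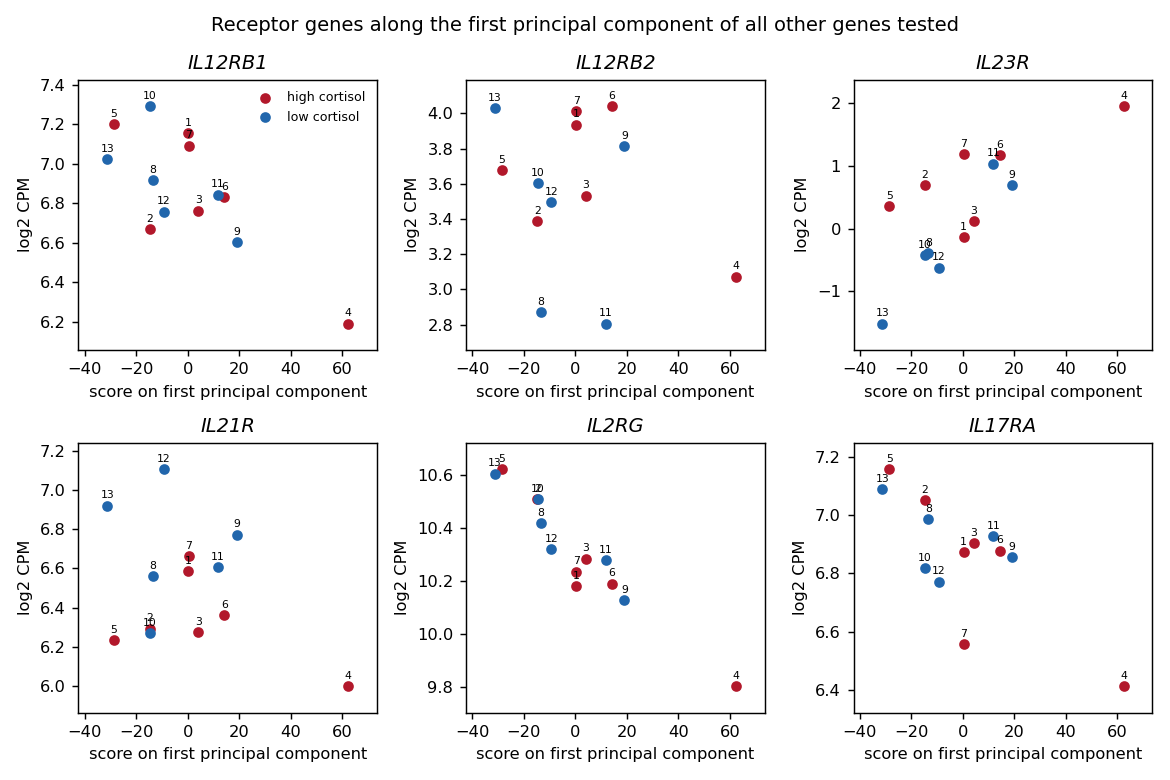
Log2 CPM of each receptor gene against the score of each cow on the first principal component of the other genes tested, with high cortisol cows in red and low cortisol cows in blue, numbered by replicate. High replicate 4 stands at 62.4, far to the right of the other 12 cows, and *IL2RG* falls along the axis also among those 12 (r = -0.93).

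For each receptor gene the 3 tested genes with the highest Pearson r of log2 CPM over the 13 cows were listed, without a test, since they were picked from 11033. For *IL2RG* they were *SERPINB6* (0.97), *UQCRC1* (0.97) and *RBM42* (0.96), and for *IL17RA* *LAPTM5* (0.93), *ZBTB7B* (0.93) and *LHPP* (0.92). *IL12RB1* was most like *TOM1L2* (0.94), *ST3GAL4* (0.94) and *NUBP1* (0.93), and *IL12RB2* most like *SCARNA2* (0.85), *PPOX* (0.83) and *BOK* (0.81). For *IL23R* they were *MTRR* (0.90), *ANKRD46* (0.90) and *SELENOI* (0.89). Those of *IL21R* included *POLE*, the catalytic subunit of a replicative DNA polymerase (0.89), and *PSAT1*, an enzyme of serine synthesis (0.86). No receptor gene was among the 3 nearest of another. The closest approach was *IL2RG* at rank 116 for *IL17RA*, while *IL17RA* stood at rank 661 for *IL2RG*.

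The receptor genes were also set beside 9 marker scores, 8 of blood cell types and 1 of the interferon response, each the mean of centred log2 CPM over its list. Of the 54 pairs of gene and score 0 passed after adjustment and 5 had an unadjusted permutation p below 0.05. *IL12RB1* and *IL12RB2* had a negative r with the neutrophil score (r = -0.70 and -0.67, permutation p = 0.00684 and 0.0134, adjusted 0.271 each; rho = -0.74 and -0.79, permutation p = 0.00553 and 0.00249). Without the 2 cows farthest from the median score r was -0.65 and -0.73. *IL12RB1* also had r = -0.67 with the monocyte score (permutation p = 0.0151) and 0.55 with the cytotoxic and NK score (permutation p = 0.0498), and *IL2RG* had r = 0.61 with the interferon score (permutation p = 0.0263). The rho of these 3 pairs was -0.70, 0.57 and 0.70, and their adjusted p for r was 0.271, 0.460 and 0.355 (permutation). The 5 values of r without high replicate 4 were -0.70, -0.63, -0.63, 0.71 and 0.60 in the order given, and again none passed (adjusted permutation p from 0.349 to 0.434). By rank, *IL23R* went with the erythroid score before adjustment (rho = 0.77, permutation p = 0.00278, adjusted p = 0.0751; r = 0.47, permutation p = 0.108), with r = 0.10 within the high and 0.96 within the low cows. Its rho without high replicate 4 was 0.83 (permutation p = 0.00158, adjusted p = 0.0853). Neutrophil markers were 7 of 10 tested, and *CXCR1*, *CXCR2* and *FPR1* were not analysed here.

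Between the groups none of the 9 scores passed after adjustment. The erythroid score had the smallest p, at 0.79 higher in the high cows (exact permutation p = 0.0192, adjusted p = 0.173), and the interferon score was at -0.86 (exact permutation p = 0.0857, adjusted p = 0.385). The cytotoxic and NK score was at 0.22 (exact permutation p = 0.152, adjusted p = 0.456). The neutrophil score was at -0.22 (exact permutation p = 0.286), and its 7 markers did not move together, 3 having a positive log2 fold change. The erythroid, interferon and neutrophil differences without high replicate 4 were 0.86, -0.79 and -0.30 (adjusted exact p = 0.175, 0.336 and 0.336). With the neutrophil score as a covariate, over all cows, the log2 fold change of *IL12RB1* was -0.21 (edgeR, unadjusted p = 0.0902). That of *IL23R* was 1.12 (unadjusted p = 0.0297) and that of *IL21R* -0.45 (unadjusted p = 0.00469). None of these genes passed after adjustment (edgeR, adjusted p = 0.752 for each). The same covariate raised the genes at an unadjusted p below 0.05 from 231 to 608 of the 11033 tested. The lower unadjusted p of *IL23R* and *IL21R* in this fit was thus not particular to them.

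The other genes of these pathways were read from the same fit, in 5 lists by role. Of 64 genes listed 58 were found in the count tables and 47 tested, 21 with a positive and 26 with a negative log2 fold change and a median of -0.02. After adjustment 0 were called, and 2 (4.26%, beside 2.09% of all genes tested) were at an unadjusted p below 0.05. Both were lower in the high cows, as were 1.16% of all genes tested at that threshold. The first was *IL23A*, the subunit specific to IL-23, with 24.2, 34.9 and 43.8 CPM in the lowest, median and highest high cow and 33.4, 42.5 and 63.5 CPM in the low cows. Its log2 fold change was -0.40 (SE 0.17, edgeR, unadjusted p = 0.0372; -0.33 and unadjusted p = 0.0679 without high replicate 4), opposite in sign to that of *IL23R*, and *STAT2* ends close beside it on the other strand, so that, with counting that did not use strand, reads running past the end of *STAT2* into *IL23A* cannot be told apart from its own.

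The second was *PRDM1*, the factor that drives plasma cell differentiation and a target of IL-21, with 30.4, 42.6 and 49.2 CPM in the lowest, median and highest high cow, 43.7, 47.7 and 62.3 CPM in the low cows, and a log2 fold change of -0.26 (SE 0.12, edgeR, unadjusted p = 0.0494; -0.28 and unadjusted p = 0.0350 without high replicate 4). Among the other chains, *IL2RA* had the smallest p (log2 fold change -0.35, unadjusted p = 0.0817), and among kinases, STATs and adaptors *STAT5B* did (-0.20, unadjusted p = 0.0533). Of the 2 output genes tested, *IL10* had the smaller p (0.09, unadjusted p = 0.758), and its sign turned without high replicate 4 (-0.09).

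**Figure D5:**
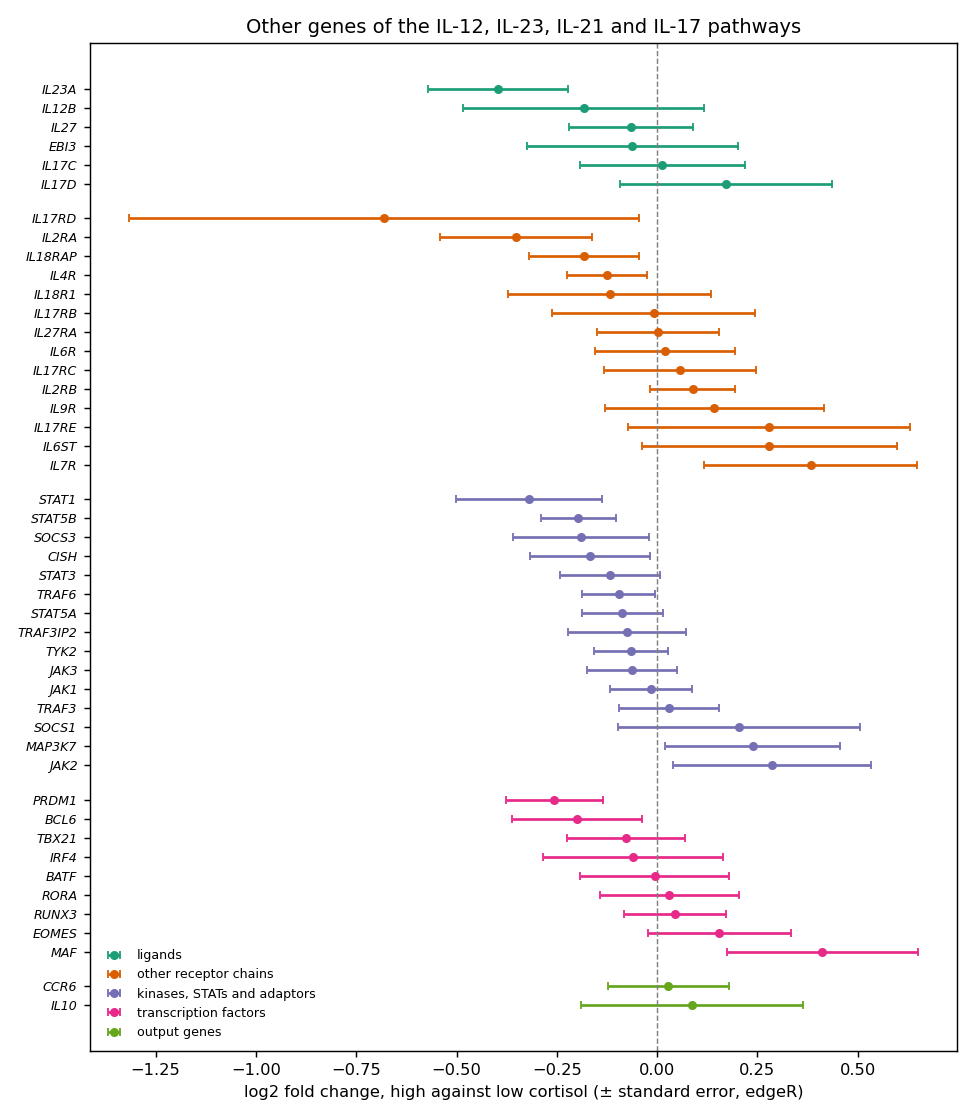
Log2 fold change of 46 of the 47 tested pathway genes, high against low cortisol, with the standard error from edgeR, grouped and coloured by role. Points lie on both sides of 0 in each role but the 2 output genes, and none passed after adjustment.

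Of the direct partners other than *IL23A*, *JAK3*, the kinase of the common gamma chain, was at -0.06, *TYK2*, the kinase of IL-12Rβ1, at -0.07, *STAT3*, the factor below IL-23 and IL-21, at -0.12, and *TBX21*, the T-bet gene of IL-12 responses, at -0.08 (log2 fold changes, edgeR, adjusted p = 0.998 for each). *JAK2*, the other kinase of the IL-12 receptor and named after its values were seen, was at 0.29 (SE 0.25, edgeR, adjusted p = 0.998), and at 0.09 without high replicate 4. *STAT4* was not analysed here. *IFNG*, the main product of IL-12 signalling, had 0 to 8 counts per cow and was below the filter, as were *IL12A*, *IL21* and *IL17F*. *IL17A* was not analysed here.

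Over the 13 cows 5 partners (*JAK3*, *TYK2*, *STAT3*, *TBX21* and *IL23A*) were correlated with the 6 receptor genes, 30 pairs in all and chosen after other results were known. *IL2RG* and its kinase gene *JAK3* gave the only pair that passed (r = 0.82, permutation p = 0.00105, adjusted p = 0.0315; rho = 0.68, permutation p = 0.0137, adjusted p = 0.176), with r = 0.78 in the high and 0.91 in the low cows. Without the 2 cows farthest from the median of *IL2RG* r was 0.57, and without high replicate 4 it was 0.65 and did not pass (adjusted permutation p = 0.403). Among all genes tested, *IL17RA*, with r = 0.81, was only at rank 661 of those most like *IL2RG*. An r of this size with *IL2RG* was thus not particular to *JAK3*, whose own rank was not computed. *IL12RB1* and *TBX21* had r = 0.62 (permutation p = 0.0212, adjusted p = 0.101; rho = 0.63, permutation p = 0.0239), and 0.65 without high replicate 4. *IL23R* and its ligand gene *IL23A* had r = -0.57 (permutation p = 0.0427, adjusted p = 0.142; rho = -0.57, permutation p = 0.0473), -0.40 without high replicate 4, and -0.67 within the high and -0.25 within the low cows.

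*IL21R* was then set beside the tested genes for chains that pair with the common gamma chain, a group drawn from the listed genes after their values were seen. Per kilobase of exon, mean levels over the 13 cows were 62.3 CPM for *IL2RB*, 54.9 CPM for *IL4R*, 44.8 CPM for *IL7R*, 34.7 CPM for *IL21R*, 27.6 CPM for *IL2RA* and 6.19 CPM for *IL9R*. Their log2 fold changes were 0.09, -0.13, 0.38, -0.37, -0.35 and 0.14 in the same order (edgeR, adjusted p = 0.998 for each). They were 0.12, -0.10, 0.15, -0.32, -0.31 and 0.23 without high replicate 4. The number of high cows below the low median was 3, 6, 2, 7, 6 and 3 of 7 in that order.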

How the data were processed

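Whole-blood RNA of 13 cows was analysed, grouped by the sample labels alone. The authors deposited raw counts per gene name. Per the file headers they came from featureCounts 1.4.6-p3 with Ensembl 88 models of UMD3.1, while the submitters' processing notes name STAR 2.7.3, Subread 1.6.5 and ARS-UCD1.2. The headers also carry an animal number that differs from that of the table, and a folder named for goat. An unnamed entry (13.9 to 16.7% of counts) was left out. No pair of libraries was identical.

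From the counts, CPM (TMM; log2 with prior count 2) was computed, and edgeR 4.0.16 (robust quasi-likelihood, filterByExpr, minimum count 10, minimum total 15, Benjamini-Hochberg over all genes) compared the groups in R 4.3.3, with no covariates. Level per length is CPM per kilobase of exon in the count tables. DESeq2 1.42.0 and limma 3.58.1 (voom) were alternatives, with other scalings, filters, covariates and each cow left out. Permutation tests were two-sided, exact for groups (1716 splits, smallest p 0.000583) and with 100000 resamples for correlations, adjusted within each family. Scripts were tested on simulated counts with 200 changed genes. Named were the 6 receptor genes, listed pathway genes at an unadjusted p below 0.05 (or the smallest p of a role), their direct partners and the 3 most alike genes of each. A direct partner and an alike gene are not reported here. The genes, lists and tests were chosen with earlier results of these data known.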

Additional observations from a re-analysis of the deposited data

How the results depend on the processing

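Receptor genes and pathway genes called after adjustment stayed at 0 under all 23 alternatives, and no alternative moved the median log2 fold change of all genes by over 0.1. The count of genes called was 1 with DESeq2. Genes at an unadjusted p below 0.05 were 348 with DESeq2, 414 without the filter, 120 with the haemoglobin covariate, 608 with the neutrophil score as covariate, and 191 to 373 with 1 cow left out. Receptor genes below it were 2 with DESeq2, limma-voom or the neutrophil covariate and 1 to 2 with 1 cow left out, the second being *IL23R* (without high replicate 1 or 3, or low replicate 9 or 11). *IL21R* stayed at an unadjusted p of 0.00404 to 0.0497 (log2 fold change -0.45 to -0.28), but its exact permutation p exceeded 0.05 without any 1 of high replicates 2 to 6 or low replicates 9, 12 and 13, the count of genes passing that test being 0 to 2. *IL23R* ran from 0.45 to 1.33 and was not tested under a minimum of 10 counts in every cow. Pathway genes below it were 1 with upper-quartile factors, 1 with that minimum, 1 with the haemoglobin and 4 with the T cell covariate, and 0 to 4 with 1 cow left out (0 without high replicate 3 or 6 or low replicate 12, 4 without high replicate 2 or low replicate 9). The sign turned for *IL17RA* with the haemoglobin covariate (0.0355) and without high replicate 4 (0.00176, in a range of -0.118 to 0.00176 with 1 cow left out), and for *IL12RB1* without high replicate 4 or low replicate 10 (0.0454 and 0.0472, in a range of -0.106 to 0.0472). With 1 cow left out, 0 to 3 receptor pairs passed (0 without high replicate 4) and 0 to 1 marker scores (1 without high replicate 1). The cause of these changes was not tested. Depth limits *IL23R* most. No paired analysis was possible because the groups were made of different cows and the labels give no pairing.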
